A study of Homo sapiens with 6 samples.

Results

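The genes described here are 36 interferon-stimulated effector genes, measured in MDAMB231 cells, an established human line labelled as triple negative breast cancer. The set was chosen by gene symbol from the known functions of the genes, with earlier results of these data known. All 36 were found among the 17645 genes listed. Their levels were compared between 3 libraries of cells transfected with a control siRNA (siControl) and 3 libraries of cells transfected with siRNA against RNF31 (siRNF31), each taken 48 h after transfection. The cells had been kept in DMEM with serum and antibiotics, and the labels name no interferon, virus or other stimulus in either group. The labels name a single cell line and a single siRNA designation against RNF31, so loss of RNF31 and any other effect of that siRNA cannot be told apart. Nothing in the labels says whether libraries with different numbers came from separate cultures, so the p-values measure spread among these libraries only, and that spread may be technical. The series asks what RNF31 does in triple negative breast cancer.

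Interferons are secreted proteins that warn cells of infection. Type I and type III interferons bind their receptors and activate the Janus kinases, which phosphorylate STAT proteins, among them STAT2. Together with IRF9 these form the factor ISGF3, which binds the interferon-stimulated response element (ISRE) in the promoters of a large set of target genes. The products of these genes degrade viral RNA, block its translation, trap virus particles at membranes or tag proteins with the ubiquitin-like protein ISG15. Many tumour lines express such genes at a low steady level without added interferon. RNF31, also known as HOIP, encodes the ubiquitin ligase of LUBAC, the complex that builds linear ubiquitin chains and is best known for its part in NF-kB and cell death signalling.

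Expression was deposited as FPKM, which scales the fragments of a gene to its transcript length and to the size of the library. RNF31 itself had FPKM of 11.34, 10.7 and 10.57 with siControl against 1.92, 2.12 and 1.86 with siRNF31, which left 18.1% of the control mean (log2 fold change -2.0 ± 0.07 standard error, adjusted p = 1.29e-07 with limma). Pearson correlations of log2 values were between 0.993 and 0.998 within groups and between 0.941 and 0.949 across them. Markers of the line were present, with VIM between 3027.06 and 3770.54 FPKM, though CD44 (mean 550 to 247), SPARC and EGFR of the same list were called lower in siRNF31. PGR stayed at or below 0.01 and EPCAM at or below 0.03, while ESR1 ran from 0.37 to 1.33 and ERBB2 from 6.84 to 8.47 in the 6 libraries. The summed level of 4 leukocyte markers ran from 1.54 to 1.72 in siControl and from 0.93 to 1.17 in siRNF31, with NKG7 at 0 in several libraries. Within it CD14 was called lower (mean 1.24 to 0.523), while PTPRC went from 0.287 to 0.377 and ITGAX from 0.0933 to 0.113. CD14 reached 1 FPKM, the level needed for testing, in the siControl libraries alone. The sum of a pair of plasmacytoid dendritic cell markers ran from 0.21 to 0.28 in siControl and from 0.39 to 0.93 in siRNF31. Of this pair, IL3RA went from a mean of 0.183 to 0.557 without overlap, and CLEC4C from 0.0533 to 0.123 with overlap. Both were too low for the main test (limma adjusted p = 0.00406 and 0.37 with no filter on low values). Of the endothelial markers, PECAM1 was called lower (mean 1.49 to 0.573), with siRNF31 values of 0.66, 0.55 and 0.51. PECAM1 too reached the level needed for testing in the siControl libraries alone. VWF went from a mean of 0.0333 to 0.0467, and CDH5 stayed at or below 0.01. Their part in the results was not tested. In bulk RNA, fewer cells that express a gene and less of its RNA in each cell cannot be told apart.

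Nearly the whole effector set was lower in siRNF31. With limma on log2(FPKM + 1) and no filter on low values, 31 of the 36 genes were called lower and 0 higher at an adjusted p below 0.05. At an unadjusted p below 0.05 limma also found 0 higher. With the filter used for all other results, FPKM of at least 1 in at least 3 libraries, 32 of the genes were tested among 11346, and again 31 were called lower and 0 higher, in the adjusted and in the unadjusted limma test. Across all genes tested, 36.5% were called lower and 26.6% higher, so lower calls were common in this contrast. The changes were also large beside those of all genes. Lower calls of at least 2-fold were made for 17 of the 32 tested effector genes, against 489 (4.31%) of the 11346 genes tested. Without the filter they were made for 17 of 36 and for 489 of 17630 genes. Of the 17, OASL and MX2 passed the filter through the siControl libraries alone, and OAS1 and TRIM22 also needed siControl libraries to pass. The median log2 fold change was -1.16 over the 32 tested members and -0.06 over all genes tested, and without the filter it was -0.97 over the 36 members and 0.00044 over 17630 genes.

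**Figure D1:**
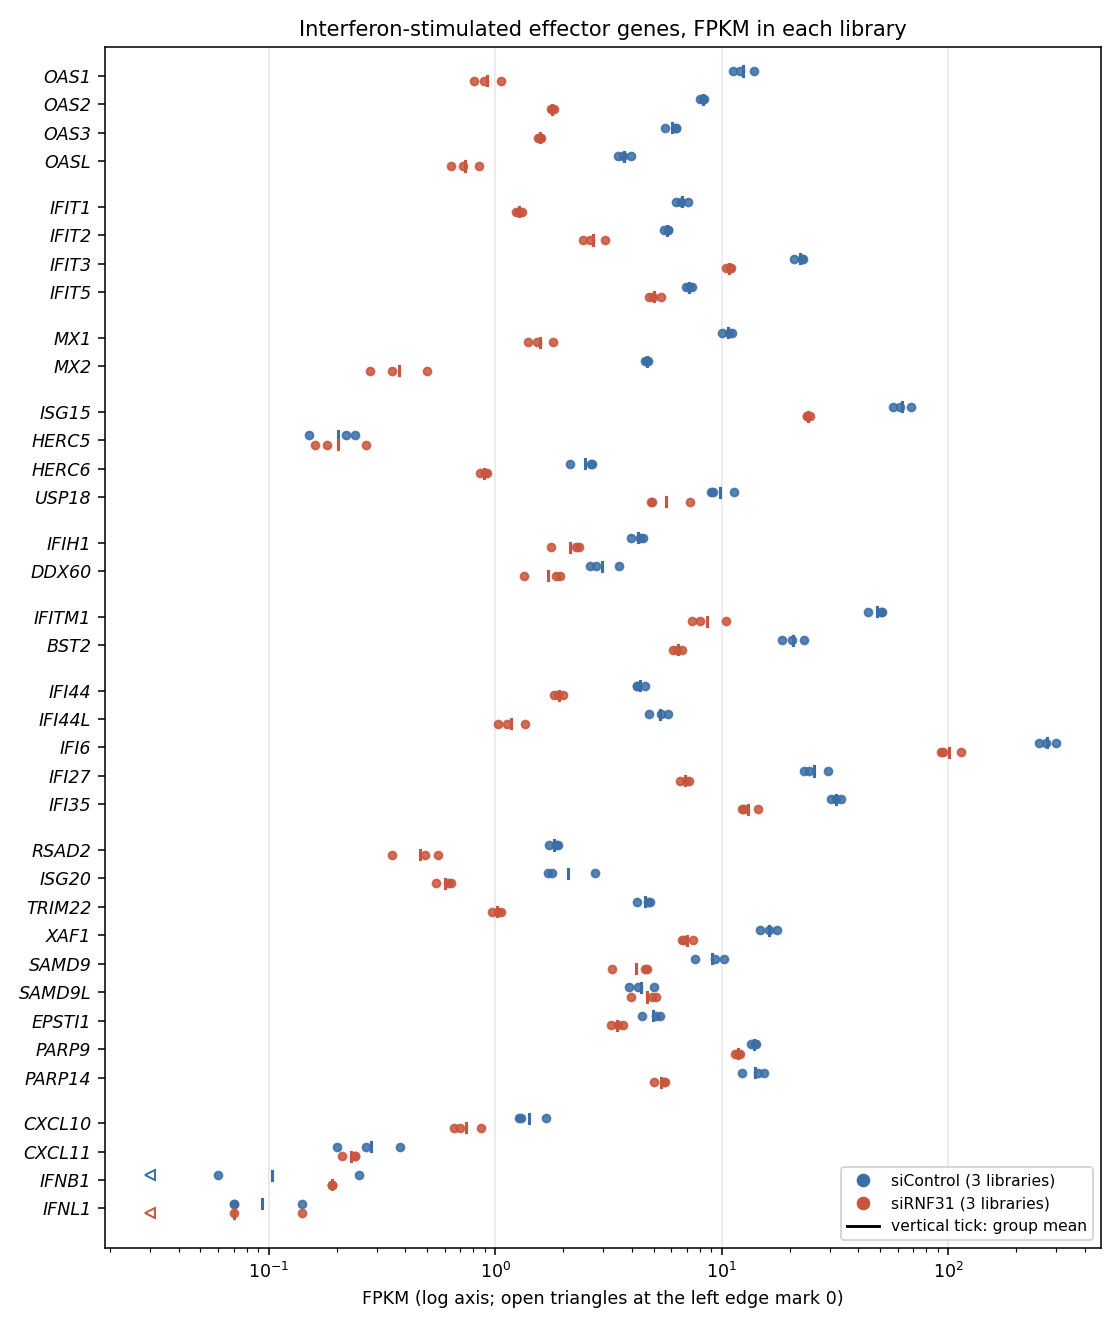
FPKM of the 36 effector genes in each library on a log axis, by role, with siControl and siRNF31 libraries as points and the group means as ticks. The siRNF31 points lie below the siControl points in 31 genes and overlap with them in SAMD9L, HERC5, CXCL11, IFNB1 and IFNL1.

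The groups did not overlap in 31 of the 36 genes, and in each of these the siRNF31 libraries were the lower ones. Among all genes tested, 38.8% had siRNF31 values that all lay below the siControl values. The 5 overlapping genes were SAMD9L and the 4 genes that failed the filter, HERC5, CXCL11, IFNB1 and IFNL1. Of the tested genes, OASL, MX2, HERC6, RSAD2, ISG20 and CXCL10 reached 1 FPKM through the siControl libraries alone, and 25 of the other 26 were called lower. OAS1 and TRIM22, counted among the 26, were below 1 FPKM in some siRNF31 libraries and also needed siControl libraries to pass. The share of the control mean left in siRNF31 ran from 7.43% for OAS1 to 106.5% for SAMD9L, with a median of 37.7%. It was under 25% in 9 genes, from 25% to 50% in 16 and 50% or more in 7. OAS1 had the rank 3 among the most lowered of the 11346 genes. Among the 100 most lowered of these 11346 were 7 effector genes, which include OAS1 and MX2.

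**Figure D2:**
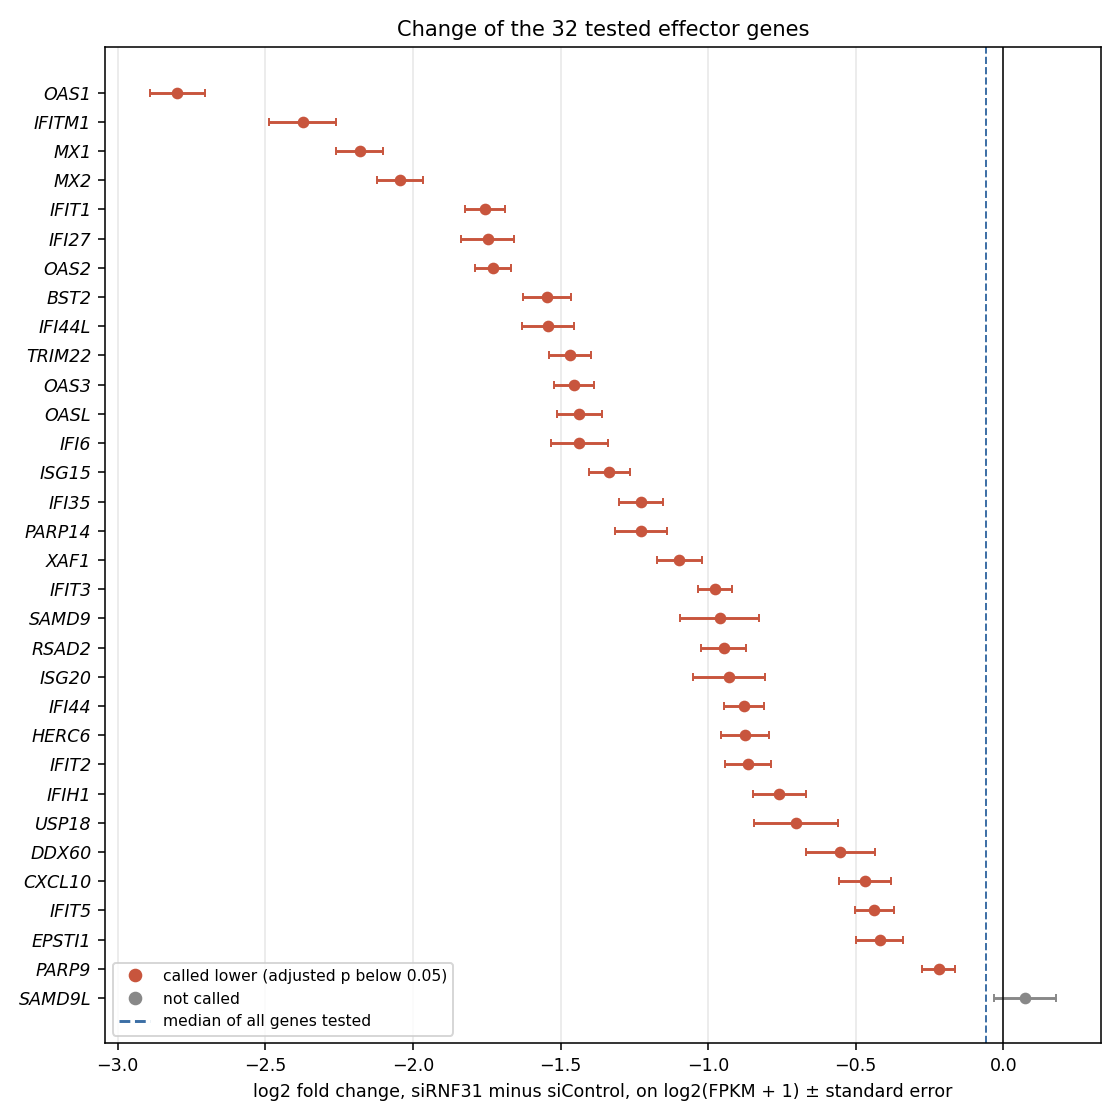
Log2 fold change of the 32 tested effector genes, siRNF31 minus siControl on log2(FPKM + 1), as points with standard errors; the dashed line is the median of all genes tested, -0.06. The genes run from OAS1 at -2.80 to SAMD9L at 0.07, and SAMD9L is the gene not called.

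**Figure D3:**
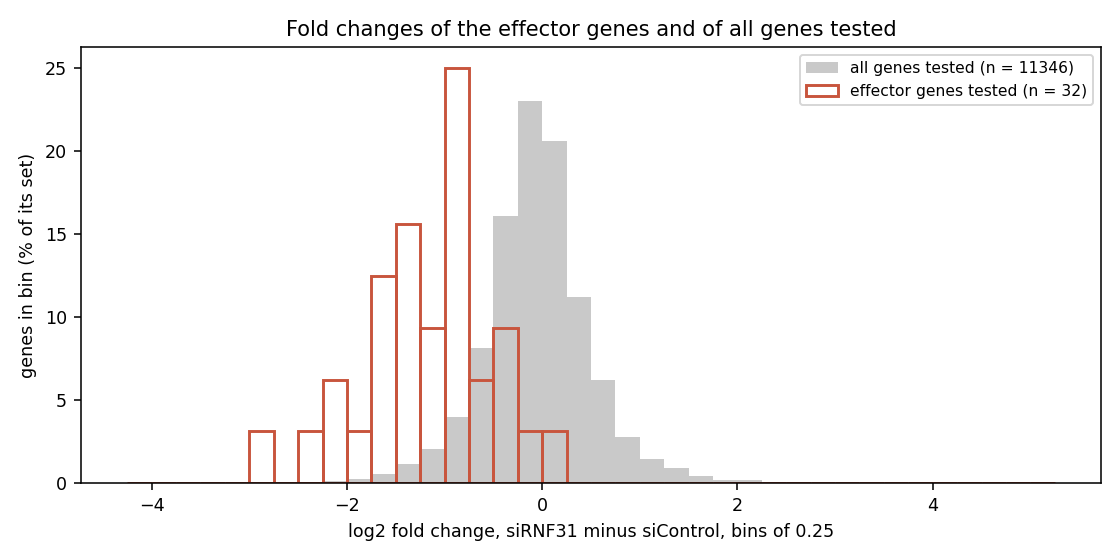
Share of genes in each bin of log2 fold change, for the 32 tested effector genes and for all 11346 genes tested. The effector genes are centred at -1.16 and overlap with the lower side of the distribution of all genes, which is centred at -0.06.

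Levels in siControl covered a wide range. The control mean exceeded 20 FPKM in 7 genes, lay between 1 and 20 in 25 and was under 1 in 4. Spearman's rho between the share left and the control level was -0.08 over the 32 tested genes, given as a description across genes that share the same libraries. Summed over the 36 genes, the level was 691.8, 645.6 and 618.9 FPKM in siControl against 232.1, 232.5 and 255.0 in siRNF31, so the groups lay far apart. The mean sum was 652 ± 36.9 and then 240 ± 13.1 (SD, n = 3 each), 36.8% of control, with an exact two-sided permutation p of 0.1, the smallest that 3 against 3 libraries allow. IFI6 alone made up from 40.0% to 44.9% of this sum in the 6 libraries, and without it 36.8% was left as well.

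A pair of libraries stood apart from the others of their group in the same way, siControl replicate 1 and siRNF31 replicate 3. The deviation of each from the other libraries of its group followed the length of the longest annotated transcript, with Spearman's rho of -0.69 in both over the 32 tested effector genes and of -0.59 and -0.54 over 11285 genes. In siRNF31 replicate 3 the short transcripts of IFI6 and IFITM1 deviated by 0.29 and 0.39 and the long ones of SAMD9 and DDX60 by -0.39 and -0.31. The relation was loose, since ISG15, the shortest member, deviated by 0.04, and USP18, of medium length, deviated most, by 0.48. Without both libraries 31 effector genes were called lower and 0 higher, with a median log2 fold change of -1.20.

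**Figure D4:**
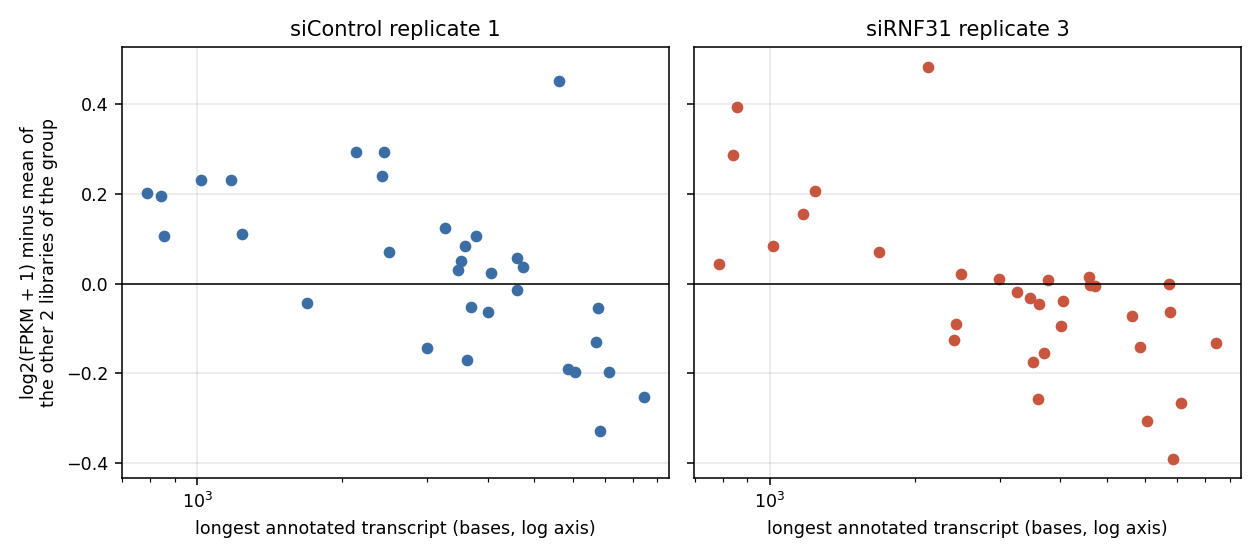
Deviation of siControl replicate 1 and of siRNF31 replicate 3 from the mean of the other libraries of the same group, on log2(FPKM + 1), against the longest annotated transcript in bases on a log axis; each point is 1 of the 32 tested effector genes. Deviations run from -0.33 to 0.45 in the control library and from -0.39 to 0.48 in the siRNF31 library, and longer transcripts mostly lie lower.

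Promoter sequence was searched for the elements of the interferon response. Windows of 300 bases, 250 before and 50 after the annotated start, were taken from RefSeq on GRCh38.p14 for the 30 effector genes that have one there; OAS2, OASL, MX2, USP18, TRIM22 and IFIT2 were not included. The core of the ISRE, searched as GAAANNGAAA on both strands, was found in 23 of the 30 genes (76.7%) and in 4.38% of the 27305 genes with a window. The GAS element, known from the response to interferon gamma, searched as TTCNNNGAA, which reads the same way on both strands apart from its middle, was found in 36.7% of the effector genes and in 9.38% of all genes. The NF-kB consensus was found in 23.3% and 7.09%. Among the 9341 tested genes other than members that have a window, the shares were 3.78% for the ISRE, 8.56% for GAS and 8.84% for NF-kB. A gene counted as holding a motif when any of its windows did, and motifs were allowed to overlap. A match is a match of letters and not a measured binding site. Elements with fewer or more bases between the GAAA repeats were not counted as ISRE matches.

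Of the next 7 windows, that of IFI6 is shown for the abundance of its transcript. The others are shown because the genes belong to contrasts described further on. These are genes that lost much beside relatives that lost little, and some of those with both kinds of element. Each is written 5′ to 3′ on the strand of the gene. Capitals mark matches to the ISRE core, which reads TTTCNNTTTC where it lies on the opposite strand, and, in OAS3 and CXCL10, also matches to the NF-kB consensus. IFIT1 (chr10:89392373-89392672, plus strand) and IFIT5 (chr10:89414318-89414617, plus strand) are neighbours on chromosome 10. SAMD9 (chr7:93117930-93118229, minus strand) and SAMD9L (chr7:93148336-93148635, minus strand) are neighbours on chromosome 7. IFI6 (chr1:27672143-27672442, minus strand) was the most abundant effector gene. OAS3 (chr12:112938224-112938523, plus strand) and CXCL10 (chr4:76023448-76023747, minus strand) held ISRE and NF-kB matches.
IFIT1: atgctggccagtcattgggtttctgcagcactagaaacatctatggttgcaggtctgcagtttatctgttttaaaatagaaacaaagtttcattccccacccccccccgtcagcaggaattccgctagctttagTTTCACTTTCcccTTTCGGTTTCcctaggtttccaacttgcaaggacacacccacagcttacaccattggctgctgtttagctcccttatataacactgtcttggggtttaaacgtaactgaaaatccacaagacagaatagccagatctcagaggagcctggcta
IFIT5: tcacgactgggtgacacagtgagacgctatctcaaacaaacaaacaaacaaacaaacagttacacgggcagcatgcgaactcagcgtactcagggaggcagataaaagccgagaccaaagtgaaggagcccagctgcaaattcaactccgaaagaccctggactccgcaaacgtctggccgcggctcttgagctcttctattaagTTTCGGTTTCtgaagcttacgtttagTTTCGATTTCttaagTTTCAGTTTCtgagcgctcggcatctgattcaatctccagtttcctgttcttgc
SAMD9: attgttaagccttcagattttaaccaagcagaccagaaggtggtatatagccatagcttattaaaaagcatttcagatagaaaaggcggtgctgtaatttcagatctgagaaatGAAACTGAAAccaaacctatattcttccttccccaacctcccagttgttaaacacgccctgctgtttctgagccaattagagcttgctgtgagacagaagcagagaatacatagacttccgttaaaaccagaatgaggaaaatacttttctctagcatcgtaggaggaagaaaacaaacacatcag
SAMD9L: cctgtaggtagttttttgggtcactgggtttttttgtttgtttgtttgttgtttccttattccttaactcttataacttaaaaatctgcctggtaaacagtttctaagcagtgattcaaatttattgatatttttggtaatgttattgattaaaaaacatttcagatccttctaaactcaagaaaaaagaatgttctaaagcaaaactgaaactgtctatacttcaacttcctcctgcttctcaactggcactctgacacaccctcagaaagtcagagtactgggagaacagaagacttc
IFI6: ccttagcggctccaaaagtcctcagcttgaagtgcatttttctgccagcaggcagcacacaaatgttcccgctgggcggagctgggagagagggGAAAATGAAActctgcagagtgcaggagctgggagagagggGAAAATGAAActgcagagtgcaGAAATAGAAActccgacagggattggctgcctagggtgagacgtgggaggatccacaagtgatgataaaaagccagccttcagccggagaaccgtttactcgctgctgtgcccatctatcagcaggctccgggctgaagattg
OAS3: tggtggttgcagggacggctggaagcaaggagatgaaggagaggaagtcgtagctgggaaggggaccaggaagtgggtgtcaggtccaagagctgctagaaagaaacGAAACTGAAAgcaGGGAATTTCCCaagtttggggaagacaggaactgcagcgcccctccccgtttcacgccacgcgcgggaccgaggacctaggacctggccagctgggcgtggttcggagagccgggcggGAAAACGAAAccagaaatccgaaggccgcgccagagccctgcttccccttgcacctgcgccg
CXCL10: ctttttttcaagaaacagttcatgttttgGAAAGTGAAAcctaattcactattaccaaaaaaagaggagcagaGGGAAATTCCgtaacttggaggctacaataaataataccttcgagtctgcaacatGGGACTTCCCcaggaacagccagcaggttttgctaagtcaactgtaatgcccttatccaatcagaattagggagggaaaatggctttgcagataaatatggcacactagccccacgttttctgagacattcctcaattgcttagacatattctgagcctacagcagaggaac

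In IFIT1 a pair of ISRE matches began 116 and 103 bases before the start, and in IFIT5 there were 3, at 45, 19 and 4 bases. SAMD9 had 1 match at 136 bases, and the window of SAMD9L had none for the ISRE, GAS or NF-kB. The IFI6 window had 3 matches at 156, 115 and 93 bases. In OAS3 ISRE matches lay at 143 and 12 bases, and a pair of overlapping NF-kB matches, at 130 and 129 bases on opposite strands, lay next to the first of them. CXCL10 had an ISRE match at 221 bases and NF-kB matches at 177 and 122 bases. A match to both elements was found in 4 effector genes, BST2, CXCL10, IFIH1 and OAS3 (13.3% of 30). The share was 0.348% of all genes with a window and 0.46% of the tested genes other than members.

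The OAS family was among the most lowered groups. OAS1, OAS2 and OAS3 sense double-stranded RNA and make short oligoadenylates in response, and OASL is a relative without that activity. All 4 were called lower by at least 2-fold. OAS1 had FPKM of 13.90, 12.08 and 11.17 in siControl against 0.89, 1.06 and 0.81 in siRNF31. The groups were far apart, with a mean of 12.4 ± 1.39 against 0.92 ± 0.128 (SD, n = 3 each), 13.5-fold lower (log2 fold change -2.80 ± 0.09 standard error, limma adjusted p = 1.24e-07). For OAS2 the FPKM were 8.39, 8.04 and 8.26 against 1.77, 1.81 and 1.78, a narrow spread in each group. Its log2 fold change was -1.73 ± 0.06 (limma adjusted p = 1.61e-07), with 21.7% left. OAS3 was at 5.63, 6.26 and 6.26 in siControl and at 1.59, 1.55 and 1.57 in siRNF31, with 26.0% left and a log2 fold change of -1.46 ± 0.07 (limma adjusted p = 5.45e-07). OASL, the least abundant of the family in siControl, read 3.97, 3.65 and 3.48 and then 0.64, 0.85 and 0.72, with 19.9% left (log2 fold change -1.44 ± 0.08, limma adjusted p = 1.16e-06). OAS1, OAS3 and OAS2 lie next to each other on chromosome 12, in this order, and they differed in how much was left.

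The IFIT family, whose proteins bind viral RNA ends and hold back their translation, was lower as a whole but to unequal degrees. IFIT1, which recognises RNA caps that lack a methyl group, had FPKM of 6.63, 7.13 and 6.30 in siControl and 1.31, 1.24 and 1.27 in siRNF31. This was 5.25-fold lower (log2 fold change -1.76 ± 0.07, limma adjusted p = 2.43e-07). IFIT3, which binds IFIT1 and stabilises it, was the most abundant of the 4 at 22.88, 22.60 and 20.88 FPKM, and was at 10.43, 10.94 and 10.85 in siRNF31. About as much was left of IFIT3 (48.6%) as of IFIT2 (47.1%), its neighbour on chromosome 10, with log2 fold changes of -0.98 ± 0.06 and -0.87 ± 0.08 (limma adjusted p = 2.23e-06 and 2.23e-05). IFIT2 read 5.55, 5.79 and 5.80 against 2.61, 3.04 and 2.43. IFIT5, which binds RNA with a triphosphate end, changed least, from 6.94, 7.18 and 7.41 to 5.40, 4.95 and 4.78. The groups still did not overlap, and 70.3% was left (log2 fold change -0.44 ± 0.07, limma adjusted p = 0.000492). IFIT1 and IFIT5 had similar control levels in FPKM, and IFIT5 was about as abundant as IFIT1 before and well above it after siRNF31.

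The MX genes encode dynamin-like GTPases that trap the nucleocapsids of viruses, MX1 best known for influenza virus and MX2 for HIV. MX1 was at 10.80, 10.03 and 11.11 FPKM in siControl and at 1.39, 1.80 and 1.53 in siRNF31. With 14.8% left it had a log2 fold change of -2.18 ± 0.08 (limma adjusted p = 1.85e-07). MX2, its neighbour on chromosome 21, had the control values 4.73, 4.59 and 4.68 and the siRNF31 values 0.28, 0.50 and 0.35. Its siRNF31 libraries thus all lay below 1 FPKM, where the added 1 compresses the log2 fold change of -2.04 ± 0.08 (limma adjusted p = 2.06e-07). By the ratio of mean FPKM, MX2 was 12.4-fold lower.

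ISG15 and its enzymes were not lowered evenly. ISG15, the ubiquitin-like protein joined to newly made proteins, was at 68.34, 61.27 and 57.24 FPKM in siControl and at 23.69, 23.86 and 24.53 in siRNF31. This left 38.6% (log2 fold change -1.34 ± 0.07, limma adjusted p = 1.05e-06). HERC5, the main ISG15 ligase in human cells, was scarce at 0.15, 0.22 and 0.24 in siControl and 0.16, 0.27 and 0.18 in siRNF31. Its groups overlapped, and it was under the filter and not called without it (limma adjusted p = 1.0). HERC6, its neighbour on chromosome 4 and the ISG15 ligase of the mouse, read 2.65, 2.13 and 2.67 against 0.86, 0.92 and 0.90, 2.78-fold lower (log2 fold change -0.88 ± 0.08, limma adjusted p = 2.73e-05). USP18 removes ISG15 and also blocks signalling at the receptor subunit IFNAR2. It was at 11.32, 8.99 and 9.12 in siControl and at 4.94, 4.88 and 7.26 in siRNF31, with the high value of each group in the libraries that stood apart. USP18 kept 58.0% of its control mean (log2 fold change -0.70 ± 0.14, limma adjusted p = 0.00248). Of the genes that charge ISG15, the activating enzyme UBA7 fell from a mean of 10.1 to one of 4.88 (log2 fold change -0.91, limma adjusted p = 1.44e-05), while the conjugating enzyme UBE2L6 was at 40.8 and 37.0 and was not called (limma adjusted p = 0.158; 0.0425 without the pair of libraries that stood apart).

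The pair of RNA helicases among the effectors was lowered by less than 2-fold on the log scale used. IFIH1, also called MDA5, detects long double-stranded RNA. It had FPKM of 4.49, 4.38 and 3.98 in siControl and 2.35, 2.27 and 1.77 in siRNF31, with 49.7% left (log2 fold change -0.76 ± 0.09, limma adjusted p = 0.000119). DDX60, a helicase reported to act beside the RNA sensors, was at 2.61, 2.79 and 3.52 against 1.86, 1.93 and 1.34. Its groups did not overlap, and 57.5% was left (log2 fold change -0.55 ± 0.12, limma adjusted p = 0.0031).

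Both antiviral membrane proteins fell strongly. IFITM1, which hinders the fusion of virus and cell membranes, was at 50.96, 50.41 and 44.35 FPKM in siControl and at 8.04, 7.41 and 10.46 in siRNF31. With 17.8% left, its log2 fold change was -2.37 ± 0.11 (limma adjusted p = 6.41e-07). BST2, also called tetherin, holds budding virus particles at the cell surface. It was at 23.01, 20.45 and 18.52 in siControl against 6.38, 6.12 and 6.68 in siRNF31, with 31.0% left (log2 fold change -1.55 ± 0.08, limma adjusted p = 1.16e-06).

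All 5 of the other genes named IFI were called lower, 4 of them by at least 2-fold. IFI6, a small membrane protein that protects the endoplasmic reticulum from use by flaviviruses, was by far the most abundant effector transcript in FPKM. It read 298.56, 268.94 and 252.73 in siControl against 92.92, 94.48 and 114.43 in siRNF31. Its means were 273 ± 23.2 and 101 ± 12.0 (SD, n = 3 each; log2 fold change -1.44 ± 0.10, limma adjusted p = 3.91e-06), and the highest siRNF31 value was that of replicate 3, a library that stood apart. IFI27, a small hydrophobic protein related to IFI6, was at 29.33, 24.35 and 23.19 against 7.16, 6.96 and 6.57, with 26.9% left (log2 fold change -1.75 ± 0.09, limma adjusted p = 8.92e-07). IFI35, a partner of NMI, was at 33.60, 31.91 and 30.23 against 12.25, 12.53 and 14.46, with 41.0% left (log2 fold change -1.23 ± 0.07, limma adjusted p = 2.31e-06). IFI44L and IFI44 are neighbours on chromosome 1 and are less well understood. IFI44L fell from 4.78, 5.41 and 5.79 to 1.35, 1.13 and 1.03, and IFI44 from 4.23, 4.21 and 4.58 to 1.82, 1.89 and 2.00. They began at similar levels and ended apart, with 22.0% of IFI44L and 43.9% of IFI44 left (log2 fold changes -1.54 ± 0.09 and -0.88 ± 0.07, limma adjusted p = 1.7e-06 and 8.56e-06).

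Of the 9 further intracellular effectors, 8 were called lower and SAMD9L was not called. TRIM22, a ubiquitin ligase that restricts retroviral transcription, fell from 4.23, 4.83 and 4.73 FPKM to 1.06, 0.97 and 1.03, with 22.2% left (log2 fold change -1.47 ± 0.07, limma adjusted p = 6.62e-07). RSAD2, or viperin, makes a nucleotide that ends viral RNA chains. It was scarce, at 1.89, 1.86 and 1.72 against 0.56, 0.49 and 0.35, with 25.6% left (log2 fold change -0.95 ± 0.08, limma adjusted p = 1.26e-05). ISG20, an RNA exonuclease, was at 2.76, 1.79 and 1.71 against 0.64, 0.62 and 0.55. Its high control value came from replicate 1, a library that stood apart, and 28.9% was left (log2 fold change -0.93 ± 0.12, limma adjusted p = 0.000219). XAF1, which counters the apoptosis inhibitor XIAP, was at 14.80, 16.13 and 17.48 against 7.50, 6.67 and 6.82, with 43.4% left (log2 fold change -1.10 ± 0.08, limma adjusted p = 5.13e-06).

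SAMD9 and SAMD9L encode related proteins that restrict poxviruses and hold back protein synthesis. SAMD9 had FPKM of 7.59, 9.34 and 10.25 in siControl and 4.58, 4.66 and 3.29 in siRNF31, with no overlap. Its log2 fold change was -0.96 ± 0.13 (limma adjusted p = 0.000292), with 46.1% left. SAMD9L was at 3.90, 4.25 and 5.00 in siControl and at 5.11, 4.90 and 3.99 in siRNF31, so its groups overlapped. The log2 fold change of SAMD9L was 0.07 ± 0.10 (limma adjusted p = 0.561), and it was not called under any setting tried.

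PARP14 and PARP9 belong to the ADP-ribosyltransferases. PARP14, which adds single ADP-ribose units to proteins, fell from 12.31, 14.39 and 15.33 FPKM to 5.56, 5.62 and 5.01, with 38.5% left (log2 fold change -1.23 ± 0.09, limma adjusted p = 5.69e-06). PARP9, the partner of the ligase DTX3L, was at 13.50, 13.97 and 14.13 against 12.09, 11.84 and 11.40. The groups lay close together without overlap, and 84.9% was left (log2 fold change -0.22 ± 0.06, limma adjusted p = 0.00823). This call of PARP9 was lost after quantile normalization (adjusted p = 0.0583). EPSTI1, named for its induction in breast cancer cells by stromal fibroblasts, was at 5.12, 4.47 and 5.33 against 3.67, 3.23 and 3.49, with 69.6% left (log2 fold change -0.42 ± 0.08, limma adjusted p = 0.00172).

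The secreted members were at low levels in both groups. CXCL10, a chemokine that draws T cells through the receptor CXCR3, had FPKM of 1.68, 1.27 and 1.30 in siControl and 0.66, 0.70 and 0.87 in siRNF31. It kept 52.5% of the control mean (log2 fold change -0.47 ± 0.09, limma adjusted p = 0.00177). CXCL11, a ligand of the same receptor, was at 0.20, 0.38 and 0.27 against 0.24, 0.21 and 0.24. The interferon genes of the set were near the lower end of what the files record. IFNB1, interferon beta, was listed at 0.25, 0 and 0.06 in siControl and at 0.19 in each siRNF31 library. IFNL1, an interferon of the lambda type, was at 0.07, 0.14 and 0.07 against 0.14, 0 and 0.07. CXCL11, IFNB1 and IFNL1 overlapped between groups, were under the filter and were not called without it (limma adjusted p = 0.429, 0.27 and 0.655).

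Relatives with unlike losses were set side by side in 7 pairs, chosen after their values were seen, as log2 ratios of FPKM within each library. IFIT1 to IFIT5 was -0.07, -0.01 and -0.23 in siControl and -2.04, -1.997 and -1.91 in siRNF31, a change of -1.88. The ratio of OAS1 to OAS3 changed by -1.81, from 1.30, 0.95 and 0.84 to -0.84, -0.55 and -0.95, so OAS1 passed from the higher to the lower of the pair. SAMD9 to SAMD9L likewise changed sign, from 0.96, 1.14 and 1.04 to -0.16, -0.07 and -0.28. In each of these pairs the groups lay apart by far more than the spread within a group. The mean ratio of IFIT1 to IFIT3 went from -1.73 to -3.08, that of PARP14 to PARP9 from 0.01 to -1.13 and that of MX2 to MX1 from -1.19 to -2.10. IFITM1 to IFITM3, a relative outside the 36, went from -3.09 to -4.91. All 7 pairs had groups that did not overlap. Each had an exact two-sided permutation p of 0.1, adjusted to 0.1 over the 7, the smallest that 3 against 3 libraries can give. Since the pairs were picked for their unlike losses, this separation was largely built into the choice, and the p-values give it no support. IFITM1, IFITM2 and IFITM3, as well as USP18 and its near copies, share sequence, and how the authors assigned reads between such genes is not given in the sources used here.

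Upstream of the effectors the genes did not move in 1 direction. The receptors and Janus kinases had 6 of 8 tested genes called lower and 1 higher, beside 36.5% and 26.6% of all genes tested, with a median log2 fold change of -0.60. IFNAR2, the chain of the type I receptor that USP18 blocks, fell from 12.7 to 7.35 in mean FPKM (log2 fold change -0.72, limma adjusted p = 1.14e-05). IFNAR1, the other chain, was at 18.1 and 14.8 (log2 fold change -0.27, limma adjusted p = 0.0155), a call that was lost without siControl replicate 2 (0.0665), without siControl replicate 3 (0.0508) and after quantile normalization (0.0592). The largest falls in this list were those of IL10RB, the chain shared by the lambda interferon and interleukin-10 receptors, from 20.9 to 5.35 (log2 fold change -1.79, limma adjusted p = 6.65e-07), and of IFNGR2, from 62.7 to 16.8 (log2 fold change -1.84, limma adjusted p = 8.87e-08). IFNGR1, which pairs with IFNGR2 to bind interferon gamma, fell from 32.1 to 19.5 (log2 fold change -0.69, limma adjusted p = 4.65e-06). Among the kinases JAK2 fell from 2.72 to 1.62 (log2 fold change -0.51), TYK2 rose from 15.5 to 18.98 (log2 fold change 0.27) and JAK1 was at 49.0 and 46.4 without a call (limma adjusted p = 0.00329, 0.00454 and 0.443). IFNLR1, the chain specific to lambda interferons, was under the filter at means of 0.423 and 0.287.

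**Figure D5:**
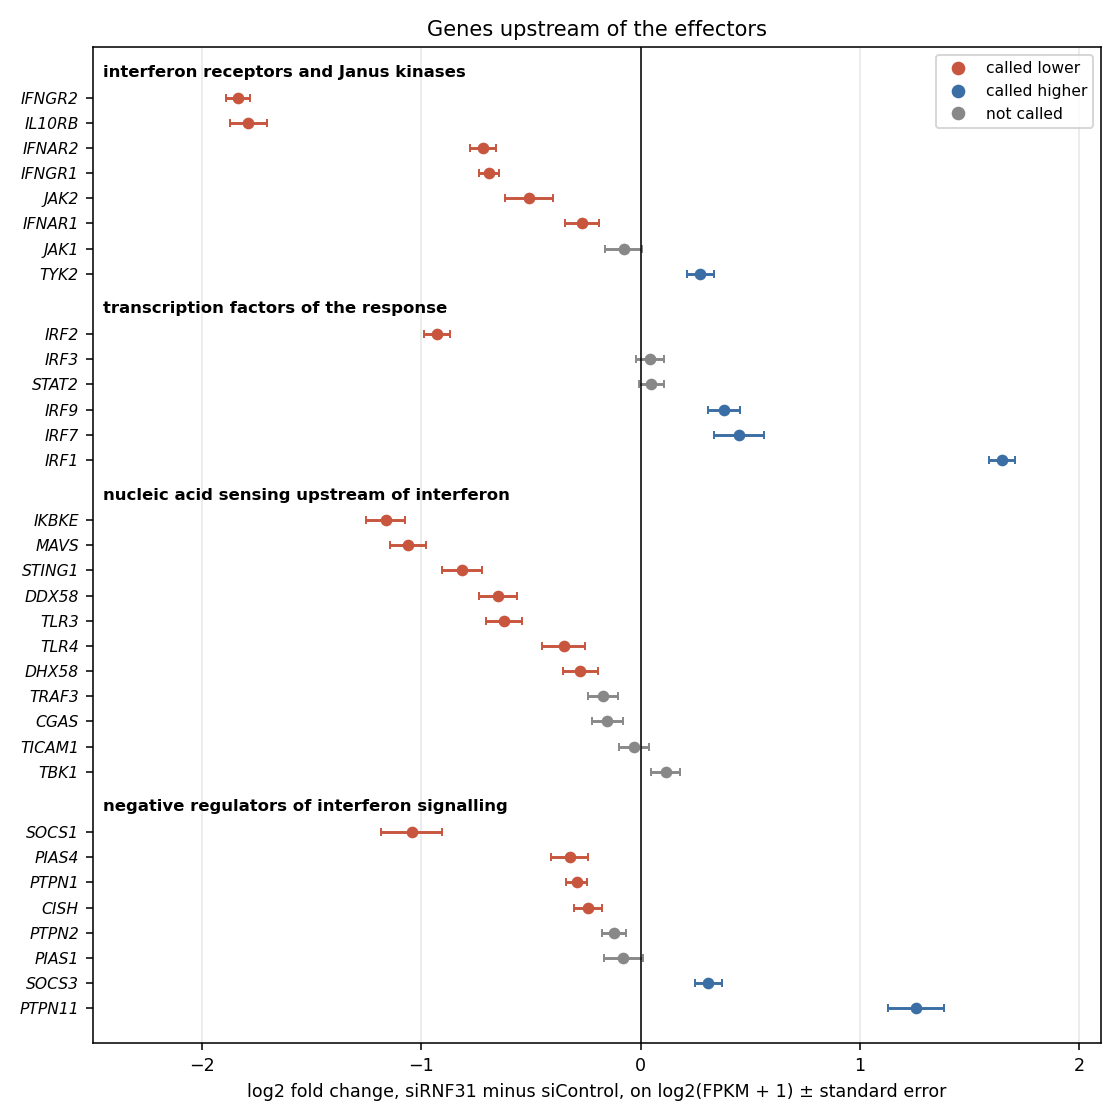
Log2 fold change, siRNF31 minus siControl on log2(FPKM + 1), with standard errors, for tested receptors and Janus kinases, transcription factors, nucleic acid sensors (listed with TLR4) and negative regulators. Receptors and sensors lie mostly on the lower side, with IFNGR2 at -1.84, while among the factors IRF1 lies at 1.65 and IRF2 at -0.93.

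The transcription factors of the response included 1 of 7 tested genes called lower and 3 called higher, beside 36.5% and 26.6% of all genes tested. STAT2, a subunit of ISGF3, was at 10.97 and 11.4 and was not called (limma adjusted p = 0.488). IRF9, the DNA-binding subunit of ISGF3, rose from 21.4 to 28.2 (log2 fold change 0.38, limma adjusted p = 0.0018). IRF1, a factor that binds the same element and is induced by interferon gamma and NF-kB, rose from 51.0 to 162 (log2 fold change 1.65, limma adjusted p = 1.69e-07). IRF2, which competes with IRF1 for the element, fell from 11.5 to 5.55 (log2 fold change -0.93, limma adjusted p = 3.03e-06). IRF7, which amplifies the induction of interferon genes, rose from 2.11 to 3.23 (log2 fold change 0.45, limma adjusted p = 0.00825), and IRF3, which starts it, was not called (limma adjusted p = 0.587). These are transcript levels, and phosphorylation of the proteins was not measured.

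The list of nucleic acid sensors and their adaptors, which also holds TLR4, had 7 of 11 tested genes called lower and 0 called higher by limma. Among all genes tested, 36.5% were called lower and 26.6% higher. At an unadjusted limma p below 0.05 the list had 0 higher as well. TLR4 is a receptor of bacterial lipopolysaccharide and not a sensor of nucleic acid. It was among the 7, at means of 7.56 and 5.70 FPKM (log2 fold change -0.35, limma adjusted p = 0.0139). Of the 7, DHX58, TLR3 and IKBKE passed the filter through the siControl libraries alone. The largest falls on the log2(FPKM + 1) scale were those of the kinase IKBKE, from 3.01 to 0.79 FPKM, the adaptor MAVS, from 14.3 to 6.31, the DNA pathway adaptor STING1, from 9.23 to 4.84, and the RNA sensor DDX58, also called RIG-I, from 5.28 to 3.01. Their log2 fold changes were -1.16, -1.06, -0.81 and -0.65 (limma adjusted p = 8.73e-06, 9.21e-06, 8.98e-05 and 0.000228). TLR3, a sensor of double-stranded RNA in endosomes, was at 1.54 and 0.653, and its 42.4% left was less than that of MAVS, STING1 or DDX58. TBK1, TRAF3, CGAS and TICAM1 were not called. The negative regulators had 4 of 8 tested genes called lower, of which CISH passed the filter through siControl alone, and 2 higher, shares near those of all genes tested (36.5% and 26.6%). SOCS1, an inhibitor of the Janus kinases that is itself induced by interferon, fell from 5.38 to 2.14 (log2 fold change -1.04, limma adjusted p = 0.000247), while the related SOCS3 rose from 17.8 to 22.3 (log2 fold change 0.31, limma adjusted p = 0.00226). PTPN11, the phosphatase SHP2, rose from 20.3 to 50.04 (log2 fold change 1.26, limma adjusted p = 4.82e-05). Of the other interferon genes, 1 of 6 listed passed the filter. This was IFNE, an interferon of epithelia, at 1.85 ± 0.407 in siControl and 2.63 ± 0.124 in siRNF31 (SD, n = 3 each; log2 fold change 0.36, limma adjusted p = 0.0154). IFNA1, of the type I interferons, was under the filter at 0.35, 0.18 and 0.53 in siControl and 0, 0.12 and 0 in siRNF31. Its groups did not overlap (limma adjusted p = 0.0152 without the filter), at values near the lower end of what the files record. IFNA5, IFNA8, IFNA13 and IFNW1 were at 0 in siControl and at or below 0.08 in siRNF31. How reads were assigned between related interferon genes is not given in the sources used here.

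Interferon-stimulated genes outside the 36 held calls in both directions. Of 39 tested, 22 were called lower, 7 higher and 10 not called, beside 36.5% lower and 26.6% higher among all genes tested. Their median log2 fold change was -0.29, against -0.06 over all genes. The most lowered on the log2(FPKM + 1) scale were PLSCR1, a membrane protein that restricts virus entry, from 50.9 to 21.5 FPKM, TRIM14, an adaptor at mitochondria, from 9.89 to 3.79, PARP10, from 15.7 to 6.85, and PARP12, which was 2.27-fold lower. Their log2 fold changes were -1.21, -1.18, -1.09 and -1.10 (limma adjusted p = 1.4e-06, 1.22e-06, 2.33e-06 and 1.16e-06). By the ratio of mean FPKM, CMPK2, a nucleotide kinase of mitochondria, was lowest, with 20.9% left of 1.85 FPKM, and it passed the filter through siControl alone. The most raised on the same log2 scale were GBP1, a GTPase that coats intracellular pathogens and a classic target of interferon gamma, from 29.2 to 53.9, SLFN5, from 2.13 to 4.20, APOL6, from 9.88 to 15.2, and the antibody receptor TRIM21, from 11.4 to 15.5. Their log2 fold changes were 0.86, 0.73, 0.57 and 0.42 (limma adjusted p = 2.95e-06, 0.000453, 0.00327 and 0.00407). IFITM3 fell from 414 to 258 in mean FPKM (log2 fold change -0.68, limma adjusted p = 0.000214), less than IFITM1. In this wider list, interferon-stimulated genes such as GBP1 and APOL6 were higher in the same libraries in which OAS1, MX1 and IFITM1 were lower.

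Changes of effector genes with and without a match to the ISRE core covered overlapping ranges. The 21 tested effector genes with a match had log2 fold changes from -2.37 to -0.22, with a median of -0.98. The 5 whose windows had none, HERC6, IFI35, OAS1, SAMD9L and XAF1, ran from -2.80 to 0.07, with a median of -1.10. OAS1 and SAMD9L, the most and the least lowered of the tested members, thus both had a window without a match to this core. The split rests on the exact letters searched. GAAACGAAA lay in windows of OAS1 and XAF1 and GAAATGAAA in that of IFI35. These have fewer bases between the repeats and were not counted. The 4 with ISRE and NF-kB matches ran from -1.55 for BST2 to -0.47 for CXCL10, within the range of the others. Among the 353 other tested genes with an ISRE match, 36.5% were called lower and 26.1% higher, with a median log2 fold change of -0.04. Among the 8988 other tested genes without a match, 36.1% were called lower and 26.6% higher, with a median of -0.06. These groups of genes were compared by description, with no test.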

How the data were processed

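RNA was measured in 6 libraries of MDAMB231 cells, 3 siControl and 3 siRNF31. Per the labels' protocols, libraries were prepared from Trizol lysates by BGISEQ-500 protocols. Per the file headers, the authors deposited FPKM for each gene, to 2 decimals, with NCBI Gene IDs and symbols. Aligner, quantification tool, build and strandedness: not given in the sources used here. Overlapping and antisense genes may therefore share reads. FPKM is relative and depends on the transcript model behind each length. The totals of the FPKM columns, 421755 to 463457, are not depths. Read counts were not derived. Depth is therefore unknown, and counting intervals are not given.

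The 36 genes, their roles and the lists of other pathway genes were chosen with earlier results of these data known. Any of the 36 could be named. Of the other lists, receptors, kinases and factors could be, and up to 4 called genes per direction. UBA7, UBE2L6, IFITM3, TLR3, TLR4, CMPK2, IFNA1, IFNA5, IFNA8, IFNA13 and IFNW1 were added after their values were seen. Some genes of these lists are not reported here. Values were transformed to log2(FPKM + 1), which understates the change of low genes, and genes that reached 1 FPKM in 3 or more of the 6 libraries were kept. The fit used limma 3.58.1 under R 4.3.3 (intensity trend, robust empirical Bayes, two-sided), adjusted by Benjamini-Hochberg over the 11346 genes. Calls were made at an adjusted p below 0.05. "Lower by at least 2-fold" means called with a log2 fold change of -1 or less. Shares left and folds of FPKM are ratios of group means.

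Single values were compared with exact permutation tests. Transcript lengths came from GENCODE (GRCh38). A RefSeq table of genes on GRCh38.p14, used for names and gene order, held 17577 of the IDs. Promoter windows came from RefSeq on the same build. The limma step was tested on simulated data. Alternatives were a pseudocount of 0.1, no filter, median of ratios scaling, quantile normalization, a fit without the trend, a block for the replicate number and leaving out libraries; a filter on the mean FPKM was added after seeing the data. Tables and figures were made with matplotlib 3.10.9, scipy 1.17.1, pandas 2.3.3, numpy 2.4.6 and Python 3.11.15.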

Additional observations from a re-analysis of the deposited data

How the results depend on the processing

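The count of effector genes called lower was 31 under every setting tried except quantile normalization and the replicate block, where it was 30, and the count called higher by limma was 0 under each of them. PARP9 was the gene lost, with an adjusted p of 0.0583 after quantile normalization and 0.0554 with the replicate block. Deviations of same-numbered libraries correlated at -0.57, 0.12 and -0.63. The deviations of siControl replicate 1 and siRNF31 replicate 3 correlated at 0.675, and both followed transcript length. These correlations therefore cannot settle whether same-numbered libraries shared a culture or batch. With the replicate block, 3497 of all genes tested were called lower and 2480 higher. Other scalings moved the median of all genes from -0.06 to -0.02 (median of ratios) and -0.01 (quantile normalization), and that of the effector genes from -1.16 to -1.12 and -1.09. The mean log2 ratio of the summed level was -1.44, and ran from -1.49 to -1.40 when each library was left out in turn.

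Among genes of the other lists, TICAM1 changed sign, to 0.0089 with median of ratios scaling and 0.055 with quantile normalization, and was not called in either. DHX58 lost its call without siControl replicate 2 (adjusted p = 0.0582) and CISH without the pair of libraries that stood apart (0.0623). TBK1 was called higher after quantile normalization (0.0317). CGAS was called lower without siControl replicate 1 (0.0469), and so was TRAF3 (0.0306). Members near or under 1 FPKM, such as HERC5, CXCL11, IFNB1 and IFNL1, are limited by the 2 decimals of the deposited values and by an unknown depth.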
